A study of Arabidopsis thaliana with 2 samples.

Results

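A set of 96 genes of Arabidopsis thaliana was expressed in wild-type plants and stood at least 4-fold higher in ago1-27, a plant line with a weakened ARGONAUTE1 (AGO1) protein. The genes were chosen from a deposited table of 6791 genes by 2 limits, an RPKM of at least 1 in wild type and a ratio of ago1-27 to wild type of at least 4. RPKM counts the reads of a gene per length of its transcript and in proportion to all mapped reads. Of 6161 genes with a wild-type RPKM of at least 1, 110 met the second limit as well, which is 1.79%. From these, 14 were left out by name, among them NF-YA and SPL transcription factors targeted by microRNAs (miRNAs), the superoxide dismutase CSD2, the metacaspase MC2, the defensin PDF1.2 and the pathogenesis-related genes PR1 and PR2. The RPKM values that the text gives for the 96 genes are thus the values that chose them, and they are given as a description with no test.

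The groups were ago1-27 and wild type, both labelled as flower buds from soil-grown plants kept at 20 °C in long days of 16 h light and 8 h dark. Each was described as 3 biological replicates, but the table holds 1 RPKM value per genotype, so no value has an SD or a replicate check. The ago1-27 allele is a partial loss of function. The values come from whole tissue, where more cells of a type and more RNA per cell cannot be told apart. The natural strain behind both lines is not given in the sources used here.

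AGO1 is the protein that binds most plant miRNAs and uses them to find transcripts, which it cuts or keeps from being translated. Plants meet microbes with receptors at the cell surface, whose activation leads through calcium channels and kinase cascades to WRKY transcription factors, which bind a short DNA motif called the W-box. Downstream of these lie the hormone salicylic acid, which acts through the coactivator NPR1, and secreted antimicrobial proteins, part of which answer to jasmonate and ethylene instead.

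Libraries held an estimated 11407616, 12294210 and 12164864 reads for ago1-27 and 11196495, 10453032 and 13887069 reads for wild type, as read from the steps of low RPKM values. The table lists selected genes and has none with a ratio between 1 and 1.5001, and 69.4% of its genes had the higher value in ago1-27. The labelled tissue could be checked only in part. Of 14 floral marker genes 4 were in the table, with a summed RPKM of 12.1 in ago1-27 and 15.0 in wild type, and the organ identity genes AP3, PI, AG, SEP1, SEP2 and SEP3 had no row in it. SEP4 alone was lower, at 6.22 RPKM in ago1-27 and 12.5 RPKM in wild type. The other floral genes were higher, AP1 at 0.733 RPKM in ago1-27 and 0.0779 RPKM in wild type, LFY at 1.17 RPKM in ago1-27 and 0.151 RPKM in wild type, and SPT at 4.003 RPKM in ago1-27 and 2.24 RPKM in wild type. Of 6 pollen markers 3 had a row, with a summed RPKM of 3.99 in ago1-27 and 2.72 in wild type, and of 6 tapetum markers 1, LAP6, at 8.87 RPKM in ago1-27 and 3.83 RPKM in wild type. Of 6 leaf markers 5 were in the table, with a summed RPKM of 3508 in ago1-27 and 5641 in wild type. Most of it came from RCA, the activase of Rubisco, at 3390 RPKM in ago1-27 and 5341 RPKM in wild type. AP1 and LFY near absent in wild type beside this level of RCA do not bear out the label of flower buds. The LFY values, however, amounted to only 2 wild-type and 18 ago1-27 reads of 1 library per genotype. Those of SPT amounted to 47 wild-type and 69 ago1-27 reads of 1 library per genotype. The tissue is therefore given as labelled and was not settled. What part a different mix of tissues has in the values below was not tested.

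The 96 genes ranged from a ratio of 4.02 to 17.6, with a median of 5.47, against a median of 1.60 for all genes with a wild-type RPKM of at least 1. The ratio was under 5 for 37 genes, from 5 to 8 for 42 and at least 8 for 17, of which 5 reached 10. With no limit on the wild-type level, 382 genes, or 5.63% of the table, had a ratio of at least 4. RPKM values of the 96 ran from 4.25 to 585 in ago1-27, with a median of 16.0, and from 1.004 to 125 in wild type, with a median of 2.53. In wild type 40 of the 96 were under 2 RPKM and 13 at or above 10 RPKM, while in ago1-27 8 genes were at or above 100 RPKM. The median ratio of the whole table was 1.62, or 0.70 on the log2 scale, and with that factor divided out 33 of the 96 were still at least 4-fold higher in ago1-27.

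Intervals given with a ratio are exact 95% binomial intervals on the estimated reads of 1 average library per genotype. They cover counting error only and leave out variation between plants. The lower end of the interval was at least 4 for 49 genes of the set and under 2 for 3 genes. The median gene rested on 51.5 estimated wild-type reads in 1 library, and 18 genes on fewer than 20.

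**Figure D1:**
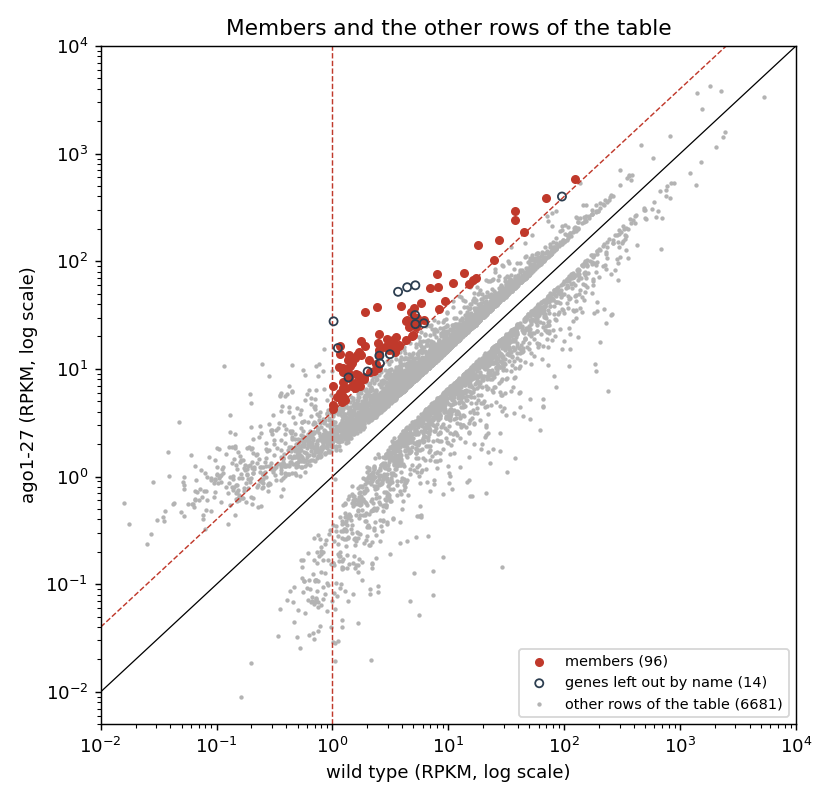
RPKM in ago1-27 (vertical axis, log scale) against RPKM in wild type (horizontal axis, log scale) for each of the 6791 genes of the table, 1 point per gene, with the 96 genes in red and the 14 genes left out by name as open circles. The dashed lines mark a wild-type RPKM of 1 and a ratio of 4, the solid line equal values, and the empty band around the solid line shows that the table holds almost no genes with similar values.

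Several genes stood close to the limits on either side. The lowest ratios inside belonged to PBS3 and MYB17, both at 4.02, to WAK2 at 4.03 and to BRG2 at 4.05. Just under the limit stood MPK11, a mitogen-activated protein kinase, at 3.99, EFR, the receptor of a bacterial elongation factor, at 3.95, and CSD1, a superoxide dismutase, at 3.94. On the expression limit, the defensin PDF1.2b passed with 1.004 RPKM in wild type, while OSM34, an osmotin-like protein with a ratio of 9.67, missed it with 0.982 RPKM.

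The genes fell into groups by annotated role, which were drawn up after the values were seen. The first group is at the cell surface, with 12 receptor-like kinases and receptor-like proteins that span the plasma membrane and read signals from outside the cell. All genes of this class in the table numbered 135, of which 107 had a wild-type RPKM of at least 1, and 12 of the 107, or 11.2%, were at least 4-fold higher in ago1-27. That share stands beside 1.79% for all genes. The number of receptor genes at least 4-fold higher rests on the scale and the limits. It was 3 after rescaling by the median of ratios, 6 after quantile normalization and 4 at a wild-type limit of 5 RPKM. The whole set shrank under the same settings. Shares of the class and of all genes were not computed for them. The levels of the 12 ran from 4.61 to 158 RPKM in ago1-27 and from 1.01 to 27.5 RPKM in wild type.

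WAK1, a wall-associated kinase whose outer part binds pectin, had the highest level of these, at 158 RPKM in ago1-27 and 27.5 RPKM in wild type, a ratio of 5.76 (5.37 to 6.19). Its neighbour on chromosome 1, WAK2, was at 70.2 RPKM in ago1-27 and 17.4 RPKM in wild type, a ratio of 4.03 (3.72 to 4.38). Both belong to a small tandem family, and WAK2 shares 30.4% of its 50-base words with another gene, mostly with AT1G21280, which overlaps it on the opposite strand. The reads were 50 nt long and kept no strand, so reads of such stretches cannot be assigned to 1 gene.

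Leucine-rich repeat receptors made up most of the rest. RLP32, which in Arabidopsis recognises a bacterial translation initiation factor, had the largest ratio of the group at 7.77 (6.01 to 10.2), with 11.3 RPKM in ago1-27 and 1.46 RPKM in wild type. RLP34 was at 28.6 RPKM in ago1-27 and 4.38 RPKM in wild type. The kinases AT1G35710 and AT5G59670 were among the better expressed, at 102 and 63.0 RPKM in ago1-27 and 24.6 and 11.002 RPKM in wild type. AT1G56120 was 5.16-fold higher in ago1-27. RLP37, 4.19-fold higher, lies wholly within the span of the DNA repair gene XRCC4 on the opposite strand, and XRCC4 itself was at 9.56 RPKM in ago1-27 and 4.45 RPKM in wild type.

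The set also held receptor kinases of other kinds. RLK1, a lectin-type receptor kinase, had 13.4 RPKM in ago1-27 and 1.75 RPKM in wild type, a ratio of 7.64. RK3, a receptor kinase of the S-domain family, was 5.94-fold higher, the cysteine-rich receptor-like kinase CRK14 4.24-fold and AT4G18250 4.55-fold. Protein kinases without a receptor part gave 5 further genes, of 240 in that class, or 2.08%. Among them MEKK3, a kinase at the head of a mitogen-activated cascade, was the best expressed, at 66.2 RPKM in ago1-27 and 16.2 RPKM in wild type. ARCK1, a cytosolic receptor-like kinase of abscisic acid and osmotic stress responses, was 6.13-fold higher and the calcium-dependent kinase CPK31 4.36-fold higher.

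The second group holds 15 genes of salicylic acid responses and cell death, with 4 of the 8 highest levels. SAG21, a small protein of the late embryogenesis abundant family that marks senescence and oxidative stress, reached 585 RPKM in ago1-27 and 125 RPKM in wild type, a ratio of 4.69 (4.43 to 4.97). It lies on chromosome 4, 1046042 to 1047105, in the TAIR10.1 assembly. ACD6, a membrane protein with ankyrin repeats that raises salicylic acid defence and cell death, was at 384 RPKM in ago1-27 and 70.0 RPKM in wild type, a ratio of 5.49 (5.27 to 5.72), and rested on more wild-type reads than any other gene of the set. ACD6 lies on chromosome 4, 8294165 to 8299195.

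LURP1, which is needed for basal defence against an oomycete pathogen, was at 293 RPKM in ago1-27 and 37.7 RPKM in wild type, a ratio of 7.78 (7.24 to 8.36). HR4, a homolog of the mildew resistance protein RPW8, was at 243 RPKM in ago1-27 and 37.3 RPKM in wild type, a ratio of 6.51 (5.91 to 7.20). These 4 genes, with the lipid-transfer genes AT4G22490 and AT5G55450 and the kinases WAK1 and AT1G35710, are the 8 that reached 100 RPKM in ago1-27.

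The largest ratio of all 96 belonged to PCR1, a small cysteine-rich membrane protein named for cadmium resistance. PCR1 (chromosome 1, 5132506 to 5133860) was at 33.6 RPKM in ago1-27 and 1.91 RPKM in wild type, a ratio of 17.6, and its interval from 11.4 to 28.6 is wide because the wild-type value rests on about 21 reads.

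Genes closer to salicylic acid itself were low. PBS3, the enzyme that joins isochorismate to glutamate on the way to salicylic acid, was at 6.93 RPKM in ago1-27 and 1.72 RPKM in wild type. NIMIN-2, which binds NPR1, was also at 6.93 RPKM in ago1-27 and at 1.61 RPKM in wild type. In a list of 30 genes of salicylic acid and systemic acquired resistance, 18 were in the table, 16 of them higher in ago1-27 and 2 lower, with a median ratio of 3.73, where 69.4% of all genes of the table were higher and their median ratio was 1.62. At least 4-fold higher with a wild-type RPKM of at least 1, as were 1.79% of all genes, were 8, of which PR1, PR2 and MC2 were left out by name and PBS3, PCR1, LURP1, ACD6 and WAK1 belong to the set. The 2 lower genes were the transcription factor WRKY70, at 23.4 RPKM in ago1-27 and 92.0 RPKM in wild type, and AIG1. Like the other gene lists, this list was drawn up with earlier results of these data known. Its counts and median include genes that the rule chose and describe that choice in part.

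Ion channels and lipases of the same group lay in the middle range. CNGC11 and CNGC3, cyclic nucleotide-gated channels encoded side by side on chromosome 2, were at 40.5 and 16.7 RPKM in ago1-27 and 5.86 and 3.78 RPKM in wild type. CNGC11 shares 35.0% of its 50-base words with other genes, mostly with its neighbour CNGC12. PLA2A, a lipid hydrolase induced by pathogens, was at 57.7 RPKM in ago1-27 and 8.19 RPKM in wild type, a ratio of 7.05. The ankyrin protein gene ANK (AT5G54610), a RIN4-family gene, SUMO3, SAG13 and the hydrolase AT3G48080 had ratios from 4.66 to 6.88. In a list of 8 senescence and cell death genes, 6 were in the table, 4 higher and 2 lower, which is close to the 69.4% of all genes that were higher. At least 4-fold higher with a wild-type RPKM of at least 1, as were 1.79% of all genes, were SAG13, SAG21 and KTI1, all chosen by the rule. The senescence regulator NAP was at 0.758 RPKM in ago1-27 and 10.8 RPKM in wild type, and SEN1 at 13.1 RPKM in ago1-27 and 55.1 RPKM in wild type.

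Defensins and other defence proteins formed a group of 7, called the defensin group below. PDF1.3, PDF1.2c and PDF1.2b are defensins, small cysteine-rich peptides that act on fungi. PDF1.3 was at 57.0 RPKM in ago1-27 and 6.92 RPKM in wild type, a ratio of 8.23 (6.14 to 11.2). PDF1.2c was at 14.4 RPKM in ago1-27 and 1.71 RPKM in wild type, a ratio of 8.39, and PDF1.2b at 6.90 RPKM in ago1-27 and 1.004 RPKM in wild type, a ratio of 6.87. Of 5 genes whose annotated product names a defensin and whose wild-type RPKM was at least 1, 4 were at least 4-fold higher, with PDF1.2 as the one left out by name. PDF2.2, a defensin that the reference annotates under another name, had the highest level, at 313 RPKM in ago1-27 and 203 RPKM in wild type, a ratio of 1.54, and PDF2.1 had a ratio of 3.63. In a list of 16 defensins and other outputs of ethylene and jasmonate, 10 were in the table and all 10 were higher in ago1-27, with a median ratio of 7.55. For all genes of the table these values were 69.4% higher and a median ratio of 1.62. The list median lies between the ratios of PDF1.2b and PDF1.3, which the rule chose, so it describes the choice in part.

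A separate list of 18 genes of jasmonate and wound responses lay near the values of the whole table. Of its 10 listed genes with a row, 6 were higher and 4 lower in ago1-27, with a median ratio of 1.62. None belongs to the set, but 1 met both limits, as did 1.79% of all genes with a wild-type RPKM of at least 1. That gene, VSP1, was left out by name, at 57.3 RPKM in ago1-27 and 4.41 RPKM in wild type. NATA1, with a ratio of 12.4, missed the expression limit with 0.366 RPKM in wild type. The other genes of the defensin group include KTI1, a Kunitz-type trypsin inhibitor that limits cell death, with a ratio of 8.32. The chitinase gene CHI and the glycosyl hydrolase AT4G16260 both had a ratio of 4.47. AT5G48657, annotated only as similar to a defence protein, had a ratio of 5.68.

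Lipid-transfer proteins, secreted carriers of lipids in the cell wall and cuticle, were 7 of the 96. There were 34 genes of this class with a wild-type RPKM of at least 1, so the 7 are 20.6% of them. Their median ratio of 8.54 was the highest of the role groups. LTP3 was at 16.4 RPKM in ago1-27 and 1.16 RPKM in wild type, a ratio of 14.1 (7.59 to 29.3), and its neighbour LTP4 at 76.6 RPKM in ago1-27 and 8.04 RPKM in wild type, a ratio of 9.53 (7.55 to 12.2). Both lie on chromosome 5, on opposite strands, with 2996 bases between them.

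The best expressed lipid-transfer genes had smaller ratios. AT4G22490 was at 186 RPKM in ago1-27 and 44.7 RPKM in wild type, and AT5G55450 at 143 RPKM in ago1-27 and 18.2 RPKM in wild type. AT5G55450 shares 59.0% of its 50-base words with the non-coding gene AT5G08275, so its reads may be split between them. AT5G55460, 272 bases away, was at 16.3 RPKM in ago1-27 and 1.91 RPKM in wild type. On chromosome 4, EARLI1 was at 34.0 RPKM in ago1-27 and 4.73 RPKM in wild type, and AT4G12490, in the same cluster of hybrid proline-rich genes, at 13.8 RPKM in ago1-27 and 1.17 RPKM in wild type.

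**Figure D2:**
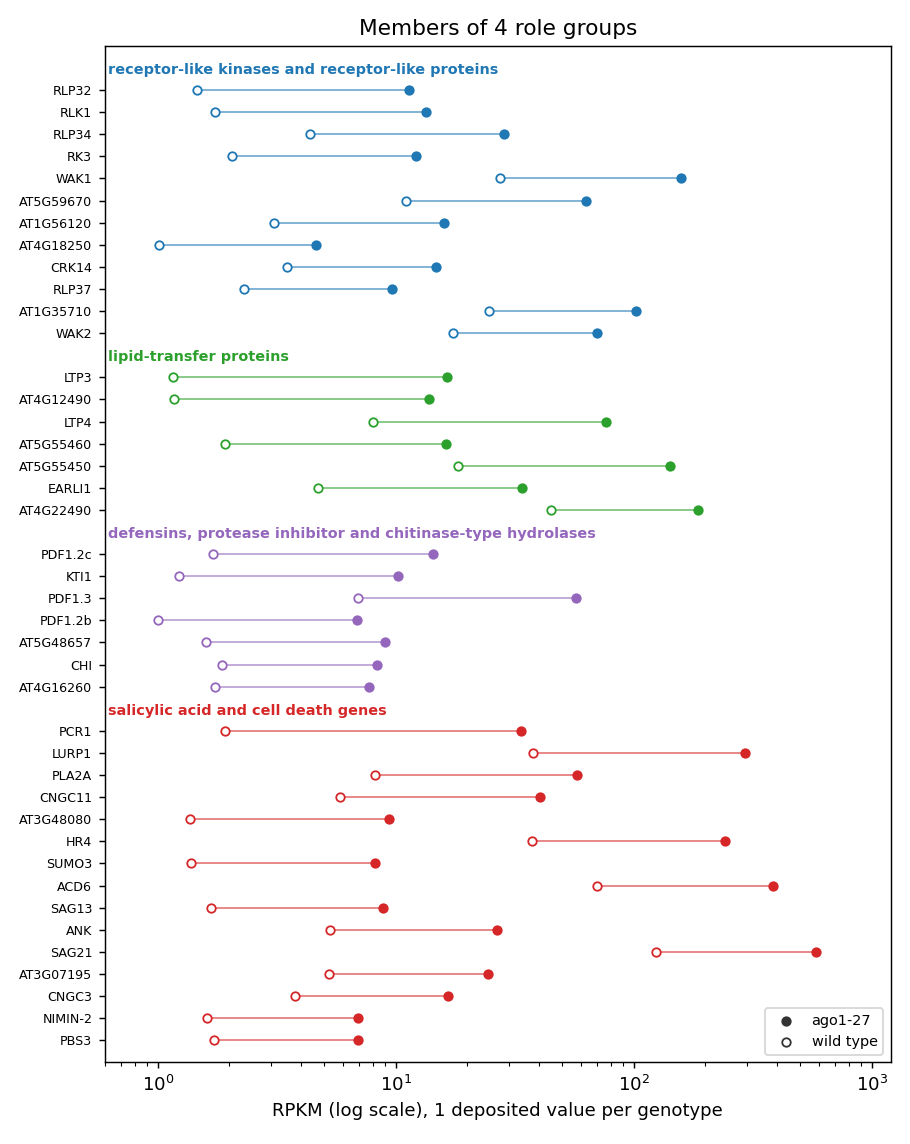
RPKM (log scale) in ago1-27 (filled circles) and wild type (open circles) for the genes of 4 role groups, each gene a line of its own with the 2 deposited values joined, in falling order of ratio within a group. The line of PCR1 is the longest, at a ratio of 17.6, and SAG21, ACD6, LURP1 and HR4 reach furthest to the right.

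The remaining genes spread over the cell wall, metabolism, transcription and transport. Cell wall genes numbered 7, with ratios from 4.18 to 8.01. COBL5, a relative of the cellulose-orienting protein COBRA, stood highest in ratio, and the pectin methylesterase gene AT2G26440 highest in level, at 28.0 RPKM in ago1-27 and 4.29 RPKM in wild type. RGXT2, a xylosyltransferase of rhamnogalacturonan II, was 7.09-fold higher, and the xyloglucan enzymes XTH33 and XTH25 5.38-fold and 4.73-fold. The peroxidase AT5G64120 was at 20.2 RPKM in ago1-27 and 4.84 RPKM in wild type. Aspartyl proteases gave 3 genes, 17.6% of 17 in their class. Of these AT5G10760 was 6.39-fold higher, and AT3G51330 and AT3G51340, with 318 bases between them, 4.31-fold and 4.28-fold.

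Redox, specialised and hormone metabolism gave 12 genes. AT3G61280 (chromosome 3, 22680960 to 22683769), annotated as an O-glucosyltransferase of the Rumi type, had the second largest ratio of all at 15.5 (11.9 to 20.5), with 37.4 RPKM in ago1-27 and 2.41 RPKM in wild type. The cytochrome P450 genes CYP71B22 and CYP71B23 are neighbours on opposite strands of chromosome 3, with 1547 bases between them. CYP71B22 was at 38.7 RPKM in ago1-27 and 3.88 RPKM in wild type, a ratio of 9.96 (7.95 to 12.6), and CYP71B23 at 13.4 RPKM in ago1-27 and 1.61 RPKM in wild type, a ratio of 8.28.

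P450 genes as a class held both directions. Of 63 with a row, 28 were higher in ago1-27, and the class had a median ratio of 0.623. HO3, a heme oxygenase of the pathway to the phytochrome chromophore, was 8.84-fold higher, the glutathione transferase GSTU4 5.67-fold and the nitrilase NIT2 4.40-fold.

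Transcription-related genes were 7 of 263 in their class, or 2.66%, close to the share of all genes. The one with the largest ratio was AT1G29270, annotated as similar to bHLH35, at 21.2 RPKM in ago1-27 and 2.53 RPKM in wild type. WOX1, a homeobox gene of leaf blade outgrowth, was at 20.8 RPKM in ago1-27 and 4.99 RPKM in wild type. ERF12, of the ethylene response factor family, was 5.22-fold higher, and MYB17, which acts with LEAFY in flower formation, was at 5.12 RPKM in ago1-27 and 1.27 RPKM in wild type.

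Transport and membrane genes numbered 6, with ratios from 4.12 to 10.4. The oligopeptide transporter gene OPT1, the ABC transporter genes ABCG42 and ABCG18, and FLOT1, a flotillin of membrane microdomains and endocytosis, lay between 4.12 and 5.37. Genes of abscisic acid, dehydration and auxin were 4. PYL6, an abscisic acid receptor, was at 15.0 RPKM in ago1-27 and 2.54 RPKM in wild type, and AT3G02480, of the late embryogenesis abundant family, at 13.3 RPKM in ago1-27 and 1.39 RPKM in wild type, where its value rests on about 9 reads. Genes annotated as uncharacterized or non-coding were 8 of 552 in their class, or 1.45%.

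**Figure D3:**
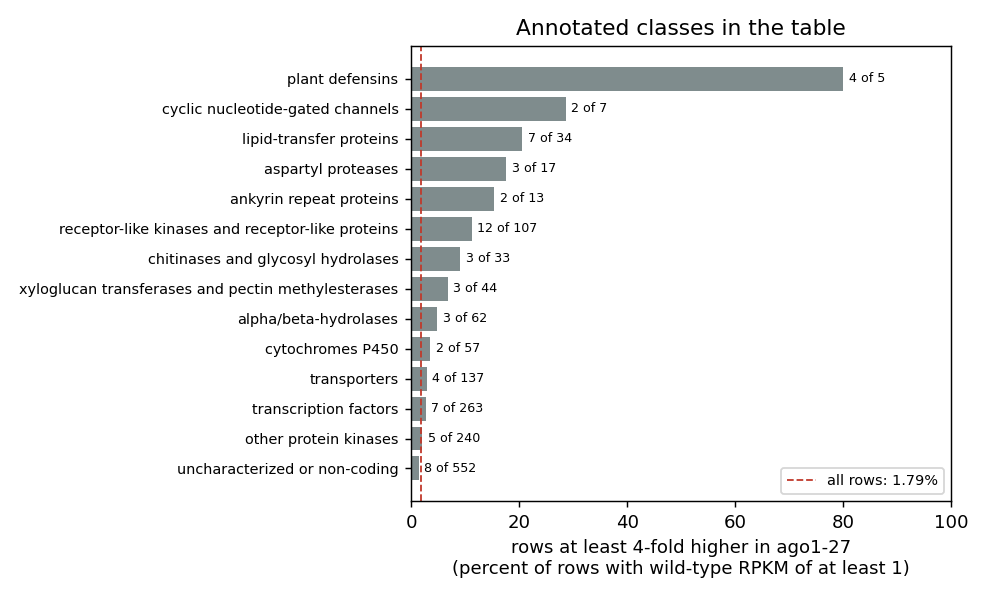
Share of genes at least 4-fold higher in ago1-27 (horizontal axis, percent of genes with a wild-type RPKM of at least 1) for each annotated class, with the count beside each bar, the genes left out by name included. The dashed line marks 1.79% for all genes. All named classes lie to the right of the line, from plant defensins at the top to other protein kinases at 2.08%, except for uncharacterized or non-coding genes at 1.45%. Genes in none of these classes, 45 of 4590 or 0.98%, are not drawn. Every class drawn holds genes of the set, so that most lie to the right of the line describes the choice of classes. Classes were taken from words in the annotated product, and the defensins do not include PDF2.2.

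Some genes of the set lie near each other in the genome. Looking at 3 annotated genes on either side, 16 of the 96 had another of the set close by, as 8 pairs. They are WAK1 with WAK2, PDF1.3 with PDF1.2b, CNGC3 with CNGC11, CYP71B22 with CYP71B23, AT3G51330 with AT3G51340, EARLI1 with AT4G12490, AT5G55450 with AT5G55460, and LTP3 with LTP4. In each pair both genes are of 1 protein family. The share of such pairs among all genes of the table was not counted, so whether the set holds more of them is not known. By chromosome, from 1 to 5, the set held 17, 17, 20, 17 and 25 genes. Chromosome 1, with 26.8% of the genes of the table, was the only one whose share of the set was lower than its share of the table.

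Some values cannot be tied to 1 gene. Of the 96, 20 overlap another annotated gene, 16 of them on the opposite strand. AT2G33815 (chromosome 2, 14305008 to 14306053, minus strand), the only non-coding RNA of the set, lies wholly opposite to SPL3, a miR156 target left out by name. AT2G33815 was at 30.1 RPKM in ago1-27 and 5.02 RPKM in wild type, and SPL3 at 31.6 RPKM in ago1-27 and 5.16 RPKM in wild type. The ratios of 6.002 and 6.13 are nearly equal, and 93.4% of the 50-base words of AT2G33815 are also in SPL3, so its value cannot be told apart from that of SPL3. AT2G47720 lies within the glutathione transferase gene GSTF8 on the same strand, and rests on about 5 wild-type reads.

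AT5G14560, annotated with a length of 123 bases, was at 9.38 RPKM in ago1-27 and 1.24 RPKM in wild type. The wild-type value stands for about 2 reads, and the interval of its ratio of 7.56 runs from 1.64 to 80.9. Over 92 of its bases AT5G14560 overlaps AT5G14550 on the opposite strand, and it shares 58.1% of its 50-base words with that gene. Its few reads may thus belong to AT5G14550. AT5G14560 ends 607 bases before the annotated MIR398c hairpin on the same strand, and a link between them was not tested. In all, 64 of the 96 genes shared no 50-base word with another gene, and 6 shared more than 25% of theirs.

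Promoter sequence was not used to choose the genes. In the 250 bases before the annotated start, 42 of 95 genes with an annotated protein held at least 1 W-box, written here as TTGACC or TTGACT and searched on both strands. That is 44.2%, against 29.5% of 6525 genes of the table and 28.4% of all 27443 protein-coding genes. At least 2 W-boxes were present in 16 of the 95 promoters, or 16.8%, against 6.74% in the table and 6.18% in all genes. With 500 bases the shares lay closer together, at 51.6% for the set, 45.9% for the table and 45.2% for all genes. No test was made, and a match of letters does not show that a factor binds there.

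Other motifs were searched in the same windows. The core of the as-1 element, TGACG, was in 25.3% of the promoters of the set, 20.0% in the table and 18.6% in all genes. It shares the letters TGAC with the W-box but continues with a different letter. The G-box CACGTG was in 4.21%, 7.33% and 6.49% in the same order, and the GCC-box GCCGCC, bound by ethylene response factors, in 2.11%, 1.96% and 1.87%. By role, a W-box was present in 6 of 7 genes of the defensin group, 2 of 3 secreted proteases and 7 of 12 receptor genes. The W-box was also in 4 of 7 uncharacterized genes, 6 of 12 genes of redox and other metabolism and 3 of 7 cell wall genes. Among salicylic acid and cell death genes 6 of 15 held a W-box, and among intracellular kinases 2 of 5. A W-box was present in 2 of 6 transport genes, 1 of 3 ungrouped genes and 1 of 4 genes of abscisic acid, dehydration and auxin. Lipid-transfer genes and transcription-related genes each had it in 1 of 7.

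The promoters of 4 genes show how the motif is placed. CPK31 and the peroxidase gene AT5G64120 hold the most W-boxes of the set, 3 each, while SAG21 has the highest level and NIMIN-2 is the one tied to NPR1, with 2 each. All 4 genes are on the minus strand, and each sequence is given 5′ to 3′ toward the gene, ending at the base before its start, from RefSeq's TAIR10.1 assembly. Capitals mark a W-box, which reads AGTCAA or GGTCAA where it lies on the other strand.
CPK31, chr4:2384122-2384371: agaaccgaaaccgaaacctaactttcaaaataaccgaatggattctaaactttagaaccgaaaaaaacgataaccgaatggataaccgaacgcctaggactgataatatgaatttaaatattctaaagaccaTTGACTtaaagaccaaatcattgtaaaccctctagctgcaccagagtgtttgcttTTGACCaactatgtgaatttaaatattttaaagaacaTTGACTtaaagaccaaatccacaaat
AT5G64120, chr5:25661008-25661257: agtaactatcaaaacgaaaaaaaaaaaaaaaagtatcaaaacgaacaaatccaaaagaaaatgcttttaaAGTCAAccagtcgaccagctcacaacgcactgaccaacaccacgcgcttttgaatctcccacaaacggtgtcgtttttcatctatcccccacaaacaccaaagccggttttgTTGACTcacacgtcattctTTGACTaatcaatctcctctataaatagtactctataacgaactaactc
SAG21, chr4:1047106-1047355: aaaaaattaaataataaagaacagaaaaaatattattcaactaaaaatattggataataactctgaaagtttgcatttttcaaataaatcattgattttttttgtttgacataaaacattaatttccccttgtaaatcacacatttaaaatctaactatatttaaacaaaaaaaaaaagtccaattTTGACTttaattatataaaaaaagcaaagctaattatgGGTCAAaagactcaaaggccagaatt
NIMIN-2, chr3:9471040-9471289: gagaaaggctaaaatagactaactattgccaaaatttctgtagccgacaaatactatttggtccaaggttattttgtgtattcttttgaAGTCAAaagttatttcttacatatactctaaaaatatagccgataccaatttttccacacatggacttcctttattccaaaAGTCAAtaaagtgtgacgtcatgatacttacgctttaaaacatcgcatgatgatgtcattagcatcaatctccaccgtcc
The W-boxes of SAG21 and AT5G64120 lie on both strands, those of CPK31 on the strand of the gene and those of NIMIN-2 on the other.

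**Figure D4:**
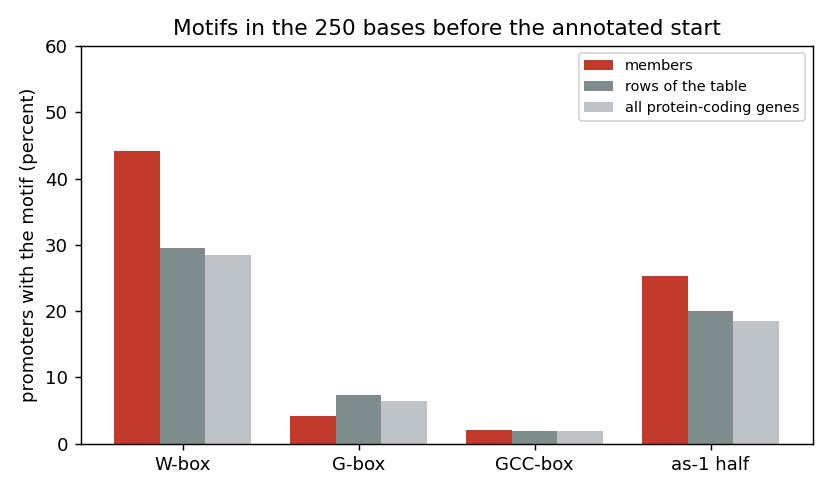
Share of promoters with at least 1 match (vertical axis, percent) for 4 motifs in the 250 bases before the annotated start, for the set (red), the genes of the table (dark grey) and all protein-coding genes (light grey). The W-box bar of the set stands at 44.2% and that of the table at 29.5%, while the G-box bar of the set, at 4.21%, is the one below its table value, 7.33%.

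The study's title sets out to find miRNA targets, so the transcripts were searched for sites that pair with the 350 different mature miRNA sequences annotated in TAIR10.1. A site was scored at 1 for a mismatch and 0.5 for a G:U pair, each doubled at miRNA positions 2 to 13, and 4 was the highest score kept. Such a site was found in 9 of the 96 genes, or 9.38%, and in 974 of 6772 genes of the table, or 14.4%. The share of the set is lowered by the choice of genes, since known miRNA targets were among those left out by name. With all 110 genes that met both limits, 16 held a site, or 14.5%. At a score of at most 3 the shares were 3.13% for the 96, 8.18% for the 110 and 6.57% for the table. In a list of 78 conserved miRNA targets, 46 were in the table, 40 of them higher in ago1-27 and 6 lower. Their median ratio was 2.38, against 1.62 for all genes, of which 69.4% were higher. With a wild-type RPKM of at least 1, 7 were at least 4-fold higher, as were 1.79% of all genes at that limit. All 7 were among the genes left out by name.

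The best scores of the set came from short repeats. AT1G16500, 10.4-fold higher in ago1-27, paired with miR5658 over a run of a repeated base triplet at a score of 1, and AT5G44820 and AT2G31010 with miR5021 in the same manner. The site of MYB17 is not a repeat. It pairs with miR858b, an miRNA known for its targets among other MYB genes, at a score of 3.5. Capitals in the site mark bases that pair with the miRNA, and capitals in the miRNA mark its seed, bases 2 to 8.
MYB17 site, transcript bases 866 to 886: CcAGGaaGAACAGACAACGAg
miR858b: uUCGUUGUcuguucgaccuug
The seed pairs in full. A pairing score does not show that the transcript is cut, and MYB17, with a ratio of 4.02, is the second lowest of the set.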

How the data were processed

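Total RNA of ago1-27 and wild-type flower buds was sequenced as 50-nt single-end reads without strand, per the labels' protocols. The submitters' processing notes name TopHat2 2.0.11 and TAIR10. How reads were counted, the 3 replicates combined and genes selected for the table is not given in the sources used. The deposited table holds 1 RPKM value per genotype and their ratio, per the file headers, and this ratio equals the quotient of both RPKM columns within a relative difference of 4.17e-08.

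With 1 value per genotype no test was made. The members, gene lists and role groups were chosen with earlier results of these data known, and the text names members freely. Low RPKM values move in steps of 1 read, which gave the library sizes, searched from 8000000 to 20000000 reads. Estimated reads use the mean library size, 11955563 for ago1-27 and 11845532 for wild type, and the TAIR10.1 transcript length, which may differ from the authors' annotation. Of the gene identifiers, 6772 were found in TAIR10.1 and 19 were not. Coordinates, classes (from words in the annotated product), promoters, 50-base words and miRNA sites come from RefSeq's TAIR10.1, and the files hold no coordinates. The library size search was tested on simulated data. Alternatives were pseudocounts of 0.1, 0.5 and 1, other expression limits and other scalings. The scripts ran in Python 3.11.15 with pandas 2.3.3 and numpy 2.4.6, intervals came from scipy 1.17.1, the library size search used numba 0.67.0, and figures were drawn with matplotlib 3.10.9.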

Additional observations from a re-analysis of the deposited data

How the results depend on the processing

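The set holds 96 genes at the limits used. It held 56 with a pseudocount of 1, 368 with no expression limit, 56 and 26 with wild-type limits of 2 and 5 RPKM, 33 with values rescaled by the median of ratios and 60 with quantile-normalized values, counting all genes that met the changed rule apart from those left out by name. The receptor-like genes, 12 as reported, numbered 31 with no expression limit, 4 at a limit of 5 RPKM, 3 under the median of ratios and 6 under quantile normalization. The median log2 ratio, 2.45 as reported, was 1.75 after the median of ratios, which presumes that most genes do not differ, while the table was selected for genes that do. Of the 96 genes, 33 were still at least 4-fold higher under that scaling, and 55 after quantile normalization. After the data were seen, limits of 20 estimated wild-type reads (78 genes left) and of 25% shared 50-base words (90 left) and promoters of 500 bases were added. The share of promoters with a W-box ran from 38.2% to 51.6% over all settings. The highest share was that of promoters of 500 bases, where the share in the table was also higher, at 45.9%. No paired analysis was possible because the table holds 1 value per genotype, and for the same reason no replicate could be left out.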

Other observations

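In 483 genes of the table, 7.11%, the RPKM values of both genotypes amounted to whole reads of a single library each, within a rounding tolerance of 5.5e-10 RPKM, at some length from 0.5 to 1.1 times the annotated one. How many of the 483 do so by chance over that range of lengths was not tested on the deposited values. These genes fell into 3 of the 9 possible pairs of libraries. The ago1-27 library of 12164864 reads went with the wild-type library of 10453032 in 157 genes, the ago1-27 library of 12294210 with the wild-type library of 11196495 in 172, and the ago1-27 library of 11407616 with the wild-type library of 13887069 in 154. Of the 96 genes 1 was among them, NIMIN-2, and the set without it had a median log2 ratio of 2.46.

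Transcripts of the 96 genes had a median annotated length of 1461 bases and 3 exons, against 1671 bases and 4 exons in the table. Those with 1 exon were 15, or 15.6%, against 20.2% of the table. Of the genes of the table with a ratio of at least 4, 272 had a wild-type RPKM under 1.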
